A study of Mus musculus with 10 samples.

Results

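The genes that install, remove and read N6-methyladenosine (m6A), the most common internal mark of messenger RNA, were examined for m6A peaks on their own transcripts. They were 10 genes fixed by name: 3 writers (Mettl3, Mettl14, Wtap), 2 erasers (Fto, Alkbh5) and 5 readers (Ythdf1, Ythdf2, Ythdf3, Ythdc1, Ythdc2), out of 21842 protein-coding genes in the annotation. A peak was given to a gene when both of its ends lay in exons of a transcript of that gene on the same strand of GRCm38, the assembly also called mm10. The gene symbol written in the lists led to the same member peaks in every list, although 27.0% to 28.9% of all placed peaks carried the symbol of another gene than the one whose exons they were in.

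The peaks came from methylated RNA immunoprecipitation and sequencing (MeRIP-seq) of 3T3-L1, a mouse fibroblast line that turns into fat cells after confluence under a hormone cocktail (MDI). In this assay RNA fragments bound by an m6A antibody (the IP) are compared with the fragments before the pull-down (the input). Each of 5 conditions had 1 IP and 1 input. The conditions were solvent-treated preadipocytes (DMSO Pre), solvent-treated cells during mitotic clonal expansion (DMSO MCE), when growth-arrested cells divide again, solvent-treated cells at the differentiation stage, labelled mature adipocytes (DMSO Diff), and cells given 20 µM rhein, an anthraquinone described as an inhibitor of the FTO demethylase, from day 0 to day 3 and taken at the MCE stage (rhein MCE) or the differentiation stage (rhein Diff). All 5 were unmodified cells of one line, with no knockdown. The source names of the samples carry a running number after 3T3-L, while the title of the series names 3T3-L1.

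Each condition had 1 peak list, with 2824 peaks for DMSO Pre, 5128 for DMSO MCE, 2944 for DMSO Diff, 3069 for rhein MCE and 3071 for rhein Diff. The latter pair, both from rhein-treated cells, shared 3067 identical spans, and all 7 member peaks were the same in both, with scores that differed by at most 0.00896. Over all peaks the largest score difference between them was 50.6. Because nearly all spans were identical, the rhein MCE and rhein Diff lists were counted as 1 sample. It is called the rhein list and shown with the rhein MCE values. This leaves 4 distinct lists, and the stage of the rhein sample cannot be told from them. No adipocyte marker of 8 (Pparg, Fabp4 and Adipoq among them) held a peak in any list, against 2 to 5 of 7 markers of preadipocytes and fibroblasts. Peaks are no measure of RNA level, so the labelled cell types could not be checked from these lists. With no replicate, no difference between conditions was tested, and the read depth behind a peak is unknown.

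METTL3 is the catalytic subunit of the nuclear complex that methylates adenosine in messenger RNA, METTL14 is its RNA-binding partner and WTAP holds the complex in nuclear speckles. FTO and ALKBH5 are demethylases that take the mark away. The YTH-domain proteins bind it, YTHDF1, YTHDF2 and YTHDF3 in the cytoplasm, YTHDC1 in the nucleus, and YTHDC2 with an added helicase domain. In mammalian transcripts m6A is best known near stop codons, in long internal exons and in 3′ UTRs, most often within the letters GGAC or the wider class called DRACH.

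Sequences of some of the places described below are printed here, chosen because the comparison of the Ythdf genes and of the erasers turns on them. The first set is a 75-base stretch late in the coding sequence of the 3 Ythdf genes, cut at the span common to the Ythdf2 peaks of DMSO Pre, DMSO MCE and DMSO Diff, and at the aligned bases of its paralogs. It lies at chr2:180910926-180911000 on the minus strand for Ythdf1, at chr4:132204371-132204445 on the minus strand for Ythdf2 and at chr3:16205111-16205185 on the plus strand for Ythdf3, all in exon 4 of 5 of GRCm38 transcripts. Sequences read 5′ to 3′, and capitals mark GGAC.
Ythdf1 late stretch: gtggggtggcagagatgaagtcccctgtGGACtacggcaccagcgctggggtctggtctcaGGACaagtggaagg
Ythdf2 late stretch: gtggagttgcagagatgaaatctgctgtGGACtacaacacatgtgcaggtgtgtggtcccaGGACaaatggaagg
Ythdf3 late stretch: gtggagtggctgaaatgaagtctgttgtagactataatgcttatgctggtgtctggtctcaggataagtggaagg

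The second set holds the erasers. It gives the part of exon 1 of Alkbh5 common to its DMSO MCE and rhein peaks (coding sequence, chr11:60538571-60538620, plus strand), the part of its 3′ UTR common to the peaks of DMSO Pre, DMSO MCE and rhein (chr11:60555451-60555475, plus strand), and the whole Fto peak in exon 3 of 8 (coding sequence, chr8:91409559-91409733, plus strand).
Alkbh5 exon 1: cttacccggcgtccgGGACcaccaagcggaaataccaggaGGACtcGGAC
Alkbh5 3′ UTR: ggaacttctaaaaataatagaaaaa
Fto exon 3: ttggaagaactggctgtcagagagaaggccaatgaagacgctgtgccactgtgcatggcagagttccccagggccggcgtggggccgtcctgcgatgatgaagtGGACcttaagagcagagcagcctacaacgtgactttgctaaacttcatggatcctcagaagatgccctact

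Both erasers and 4 of the 5 readers held a peak in at least 1 list, and the writers and Ythdc2 held none. An exonic peak was held by 4 of the 10 genes at the preadipocyte stage, by 6 during clonal expansion, by 4 at the differentiation stage and by 4 under rhein. Over all protein-coding genes the share with an exonic peak was 6.89% for DMSO Pre, 12.5% for DMSO MCE, 6.69% for DMSO Diff, 7.45% for rhein MCE and 7.46% for rhein Diff. The same 4 genes, Alkbh5, Ythdf1, Ythdf2 and Ythdf3, were marked in all 4 distinct lists, against 2.56% of all protein-coding genes. Of these, Ythdf2 was marked at another place under rhein than in the DMSO lists. Its peaks are given as uncertain below, because of near copies elsewhere in the genome, but are included in all counts. At least 1 list marked 6 of the 10, against 16.6%. Among the 12699 genes whose longest transcript lay within the members' range of 2025 to 7215 bases, these shares were 2.96% for all lists and 19.5% for at least 1. Both backgrounds include genes that may not be transcribed in these cells, since the lists carry no RNA level.

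The member peaks numbered 5 for DMSO Pre, 14 for DMSO MCE, 6 for DMSO Diff and 7 for rhein, 32 in all. Per 1000 peaks of the list this came to 1.77, 2.73, 2.04 and 2.28 in the same order. DMSO MCE had the most member peaks and also the longest list. When every list was cut to its 2824 highest scores, the length of the shortest, DMSO MCE kept 8 member peaks beside 5, 6 and 7 in DMSO Pre, DMSO Diff and rhein. In bulk RNA, fewer cells carrying a marked transcript and less methylation per transcript cannot be told apart.

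**Figure D1:**
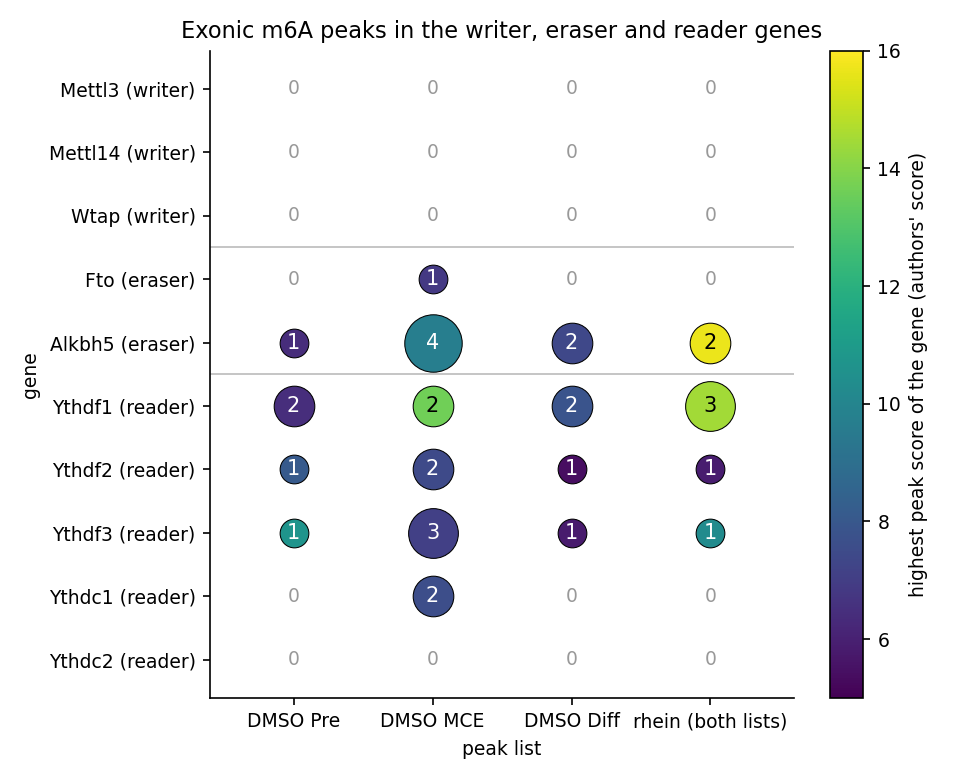
Number of exonic peaks of each writer, eraser and reader gene (rows) in each distinct list (columns), printed in a circle whose area grows with the number and whose colour gives the highest score of the gene in that list. The circles fill the rows of Alkbh5, Ythdf1, Ythdf2 and Ythdf3 in all 4 lists, those of Fto and Ythdc1 in DMSO MCE alone, and leave Mettl3, Mettl14, Wtap and Ythdc2 at 0.

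No member peak was among the strongest. The value given to a peak is headed as a log2 fold change, but its lowest values and range look like those of a negative log2 adjusted p-value. It was therefore read as a score. A higher score was taken as stronger support and not as a larger methylated fraction. Scores in the lists began at 4.19 to 4.32 and reached 127 to 735, whereas the member peaks ran from 5.28 to 15.7. The highest belonged to Alkbh5 under rhein, at rank 456 of 3069. In DMSO MCE the best member peak was in Ythdf1, at rank 480 of 5128, and in DMSO Pre it was in Ythdf3, at rank 788 of 2824. In DMSO Diff the best was again in Ythdf1, but only at rank 1616 of 2944, and the other member peaks of that list ranked lower still.

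The places of the member peaks differed between lists. Counted down from the top score, their median place was at 67.9% of the list for DMSO Pre, 47.9% for DMSO MCE, 86.9% for DMSO Diff and 29.1% for rhein. Above the middle of the list lay 2 of 5 peaks of DMSO Pre, 7 of 14 of DMSO MCE, 0 of 6 of DMSO Diff and 5 of 7 of rhein. Whether these places move with RNA level, read depth or methylation was not tested.

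**Figure D2:**
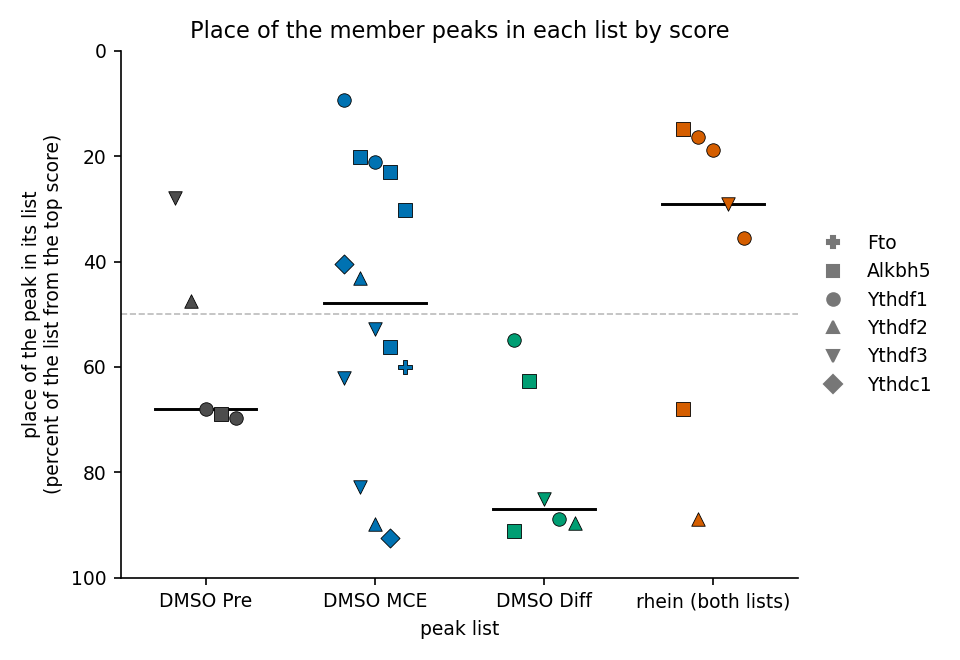
Place of each member peak in its list, as the percent of the list from the top score (vertical axis, 0 at the top), for each distinct list (horizontal axis); each symbol is a peak, its shape gives the gene and the bar is the median. All 6 peaks of DMSO Diff lie below the dashed middle line, and 5 of the 7 rhein peaks lie above it.

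The writers had 0 peaks in every list. Mettl3 (chr14:52294841-52305128, minus strand) has a longest coding transcript of 2025 bases with 14 GGAC, 6.91 per 1000 bases, the densest of the 10 members. For Mettl14 (chr3:123368297-123386108, minus strand) that transcript has 19 GGAC in 7197 bases, of which 654 are coding and 6439 are 3′ UTR. For Wtap (chr17:12966796-12994169, minus strand) it has 11 in 3187 bases, of which 456 are coding. These isoforms were chosen by total length alone, and other isoforms may have a longer coding sequence and other exons. The letters of the motif were therefore present in all 3 transcripts without a listed peak. In these isoforms the longest internal exons measured 405, 91 and 128 bases. In the absence of RNA levels, a transcript that is unmarked and one that is too scarce for a peak to be called cannot be told apart.

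Among the erasers, Fto (chr8:91313525-91668439, plus strand) held 1 peak in the whole series. It was listed in DMSO MCE, covered 175 bases of exon 3, the longest internal exon of the transcript at 619 bases, and had a score of 6.83 at rank 3074 of 5128. Its only GGAC is the one in capitals above, 1 of 10 in the transcript. With its score below the middle of the list, the peak dropped out when DMSO MCE was cut to 2824 peaks, and it was absent from the rhein list, whose lowest score was 4.32.

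Alkbh5 (chr11:60536381-60558512, plus strand) was marked in every list, in separate parts of its transcript. The part found throughout was in the 3′ UTR, with midpoints 998 to 1110 bases past the stop codon in a last exon of 4275 bases, where the peaks had scores of 6.39, 8.35, 7.36 and 7.01 in DMSO Pre, DMSO MCE, DMSO Diff and rhein. Those 4 scores lay close together, but the spans did not coincide. The DMSO MCE peak ended at 60555475 and the DMSO Diff peak began at 60555476, so no base was common to all 4, and the link between them runs through the DMSO Pre peak. The 25 bases common to the other lists hold no GGAC and are 20% G and C, but they include gaact, a member of the DRACH class. Within this place the only peak with a GGAC was that of DMSO Diff.

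The other marked part of Alkbh5 was exon 1, which holds most of the coding sequence in 1218 bases. DMSO MCE had 3 peaks there. One lay in the 5′ UTR (chr11:60538121-60538195, score 6.96), the only member peak in a 5′ UTR. Another covered 275 coding bases (chr11:60538721-60538995, score 9.26). Between them, a coding peak was listed in both DMSO MCE (score 9.65, 50 bases) and rhein (score 15.7, 150 bases). Its 50 common bases, printed above, carry 3 GGAC and are 64% G and C. Neither DMSO Pre nor DMSO Diff listed any peak in exon 1. A peak farther down the 3′ UTR (chr11:60556226-60556325, score 5.29) was found in DMSO Diff alone. Over the 4 lists, peaks covered 9 of the 26 GGAC and 825 of the 5730 bases of the Alkbh5 transcript.

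**Figure D3:**
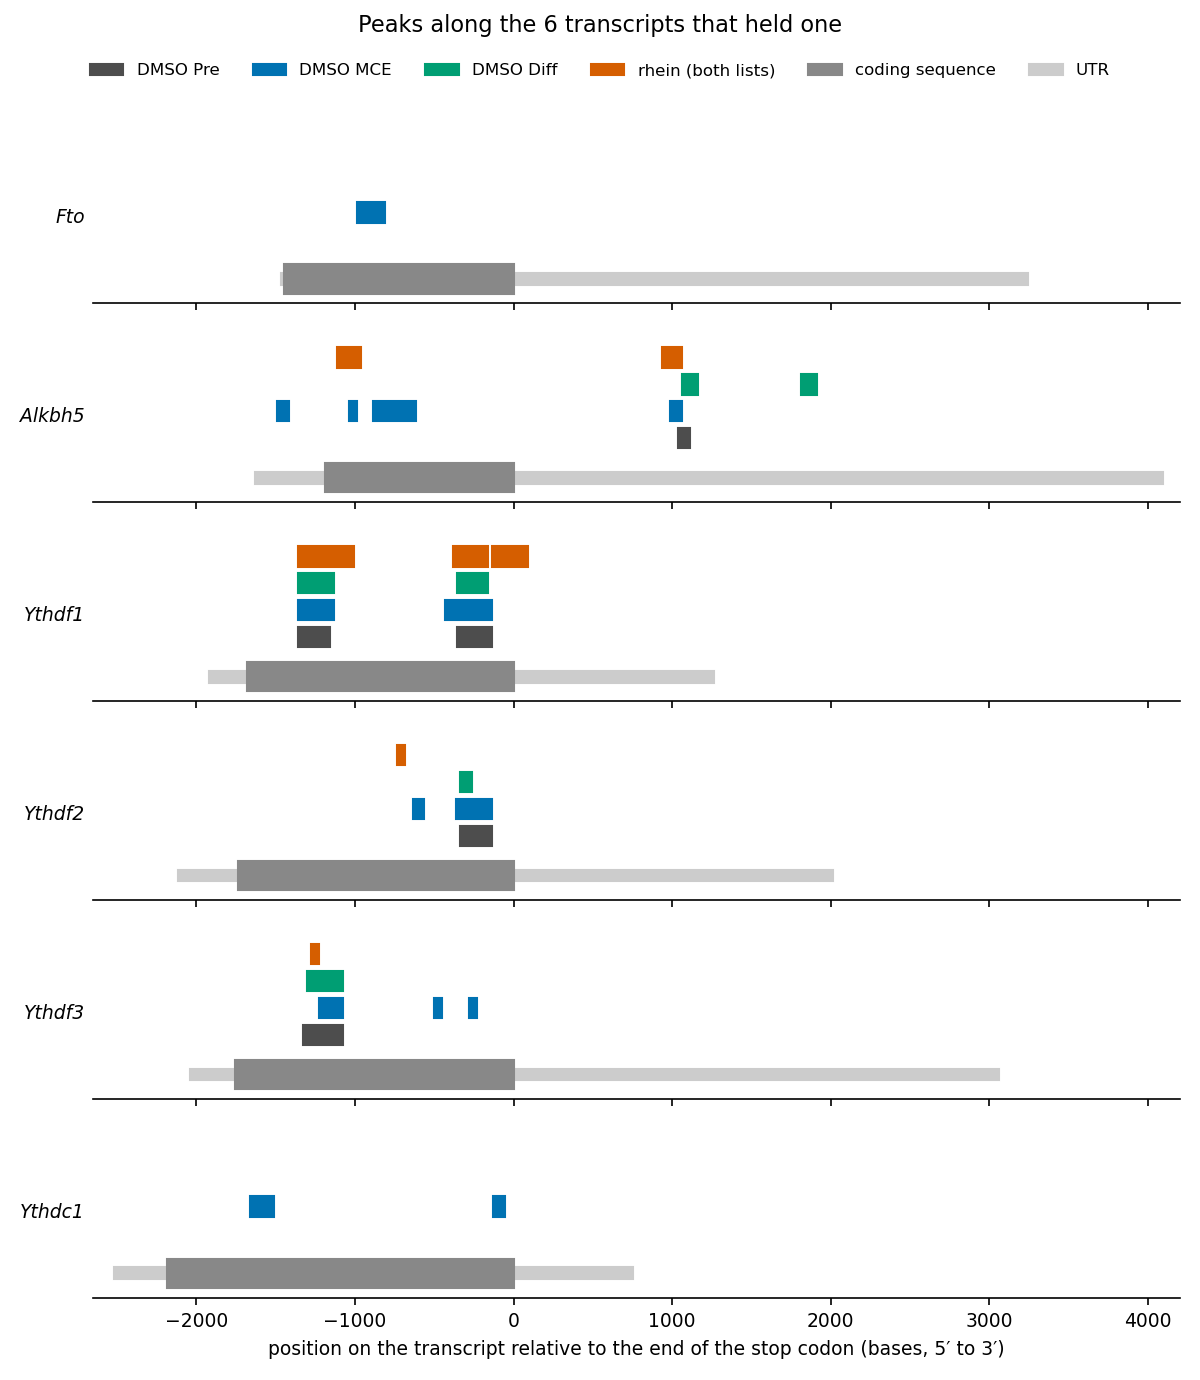
Peaks (coloured bars, by list) along the 6 transcripts that held one, drawn to scale in bases from the end of the stop codon at 0, with the coding sequence as a dark box and UTRs as thin light boxes. The Ythdf peaks lie inside the coding sequence apart from 1 rhein peak of Ythdf1 that crosses the stop codon, and those of Alkbh5 fall into a group in exon 1 and a group in the 3′ UTR.

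The cytoplasmic readers carried 20 of the 32 member peaks, and 19 of these had their midpoint in exon 4 of 5, a single long internal exon of 1521 bases in Ythdf1, 1584 in Ythdf2 and 1599 in Ythdf3 that holds nearly the whole coding sequence. By list, 4 of 5, 7 of 14, 4 of 6 and 4 of 7 member peaks lay in an internal exon over 1000 bases in DMSO Pre, DMSO MCE, DMSO Diff and rhein. Among all peaks on coding transcripts the share was 11.7%, 9.22%, 10.5% and 8.33%. No other member has an internal exon of that length in its longest coding transcript, so this share restates that the Ythdf genes were the ones marked.

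Ythdf1 (chr2:180904377-180920949, minus strand) was the most constant of them. An early peak (chr2:180911670-180912019) was listed in all 4 lists with scores of 6.43 for DMSO Pre, 9.51 for DMSO MCE, 7.88 for DMSO Diff and 14.5 for rhein. A late peak (chr2:180910795-180911094) was listed in all 4 with 6.32, 13.6, 5.51 and 13.3. Both places had their lower scores in DMSO Pre and DMSO Diff and their higher scores in DMSO MCE and rhein. Each kept 200 bases common to all lists, and the early peaks began, in the direction of transcription, at the same base, 180912019, in every list. Under rhein a further peak with a score of 9.32 followed 25 bases after the late one. It covered 225 exonic bases across the junction of exons 4 and 5 and across the stop codon, and it was not listed in any DMSO sample.

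Ythdf2 (chr4:132184912-132212303, minus strand), the reader best known for hastening decay of marked RNA, had its late peak in the 3 DMSO lists. The scores were 8.07 for DMSO Pre, 7.46 for DMSO MCE and 5.42 for DMSO Diff. The rhein list had no peak there and listed instead 50 bases farther 5′ (chr4:132204796-132204845, score 5.87), where no DMSO list had one. Another place (chr4:132204671-132204745, score 5.43) was found in DMSO MCE alone. All 5 Ythdf2 peaks have a near copy in a processed pseudogene on the X chromosome, Gm8401 or Gm6823, that differed at 2 to 6 bases. The longest identical run was 45 bases in DMSO Pre, 65 in DMSO MCE and 40 in DMSO Diff for the late peak, and 32 for the rhein peak, while the sequenced fragments were 40 to 60 nt. Runs were measured inside the peaks only, so one that reaches a peak edge could be longer. For the DMSO MCE peak with a score of 5.43 no run was measured. Reads from within such runs could match both places. The authors removed reads of mapping quality below 30. How many reads matched both places, and how many of these that limit removed, was not tested, so all 5 Ythdf2 peaks are given as uncertain. The lists held 0 peaks within 5 kb of these copies, and no other member peak had a copy that matched over 90% of its bases.

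Ythdf3 (chr3:16183212-16217037, plus strand) was marked early in exon 4 in all 4 lists. The peaks there scored 10.7 for DMSO Pre, 6.77 for DMSO MCE, 5.81 for DMSO Diff and 10.3 for rhein, so that DMSO Pre and rhein had the higher values. The rhein and DMSO MCE peaks met end to end without a shared base, and were joined only through those of DMSO Pre and DMSO Diff. DMSO MCE listed 2 more places in the same exon, with scores of 5.82 and 7.08, found in no other list.

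The 3 Ythdf coding sequences were then compared base by base on a codon alignment of 1797 columns. Pairwise identity was 68.2% for Ythdf1 and Ythdf2, 69.4% for Ythdf1 and Ythdf3 and 69.3% for Ythdf2 and Ythdf3, and the longest identical runs were 22, 17 and 17 bases, shorter than the fragments. The late stretch was cut at the Ythdf2 peaks of the 3 DMSO lists, so Ythdf2 was under a peak there in those lists by construction. The comparison with its paralogs depends on that choice. In the stretch Ythdf1 was under a peak in all 4 lists. Ythdf1 and Ythdf2 both carry GGAC at positions 29 and 62 of the stretch (alignment columns 1488 and 1521). Ythdf3 carries neither GGAC, but at position 29 it reads agact, which belongs to the wider DRACH class. Only a DMSO MCE peak reached the Ythdf3 stretch, over 16 of its 75 bases. Identity in the stretch was 80% between Ythdf1 and Ythdf2, 76% between Ythdf1 and Ythdf3 and 78.7% between Ythdf2 and Ythdf3. The stretch encodes part of the YTH domain, whose m6A pocket is lined by tryptophans, and each gene has 2 in-frame tryptophan codons in it.

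Over the whole coding sequence, peaks covered 6 of 13 GGAC in Ythdf1, 6 of 12 in Ythdf2 and 2 of 8 in Ythdf3. These counts are to be read beside the bases under a peak. Those were 350 of 1740 coding bases in Ythdf2 and 350 of 1758 in Ythdf3. In Ythdf1 they were 875, some of them past the stop codon, beside a coding sequence of 1680 bases. Outside the late stretch, GGAC and peaks did not always go together. At column 274 all 3 genes carry GGAC and none was under a peak. At columns 430 and 508 Ythdf2 carries GGAC without a peak, while Ythdf1 lacks GGAC and was under a peak in 4 lists. At columns 1450 and 1638 Ythdf3 carries GGAC without a peak. A match to GGAC describes the sequence under a peak and does not place the methylated base.

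Aligned columns under a peak of both Ythdf1 and Ythdf2 numbered 200 for DMSO Pre, 225 for DMSO MCE, 75 for DMSO Diff and 0 for rhein. For Ythdf1 and Ythdf3 they numbered 103, 78, 103 and 50. For Ythdf2 and Ythdf3 they were 0 except for 50 in DMSO MCE. In the alignment, peaks of Ythdf1 met those of Ythdf2 only late and those of Ythdf3 early, the latter also late in DMSO MCE.

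**Figure D4:**
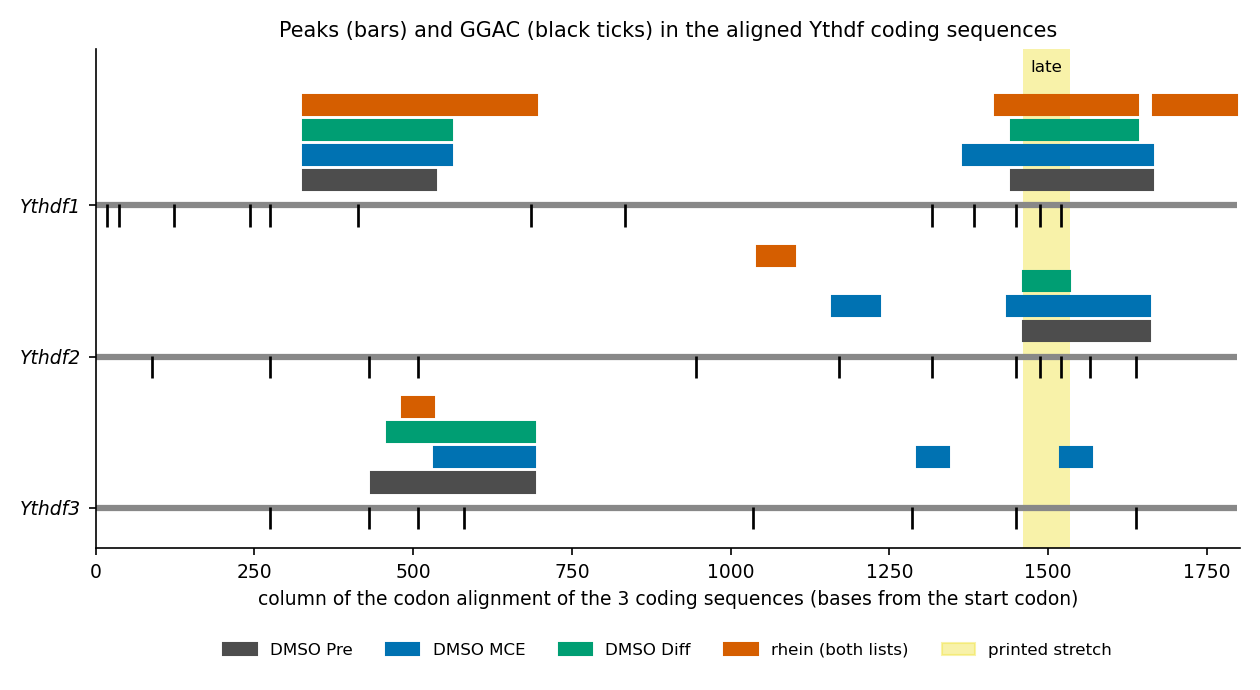
Peaks (bars coloured by list) and GGAC (black ticks below each line) of Ythdf1, Ythdf2 and Ythdf3 on the 1797 columns of their codon alignment, counted from the start codon, with the printed late stretch shaded. Ythdf1 has early and late bars in all 4 lists, Ythdf2 late bars in the 3 DMSO lists, and Ythdf3 early bars in all 4 lists. The other bars, among them the later ones of Ythdf3 in DMSO MCE, are each of a single list.

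The nuclear reader Ythdc1 (chr5:86804221-86836659, plus strand) had 2 peaks, both in DMSO MCE alone. One covered 150 bases of exon 4 of 17 (chr5:86816971-86817120, score 7.61, rank 2075 of 5128), where a long noncoding RNA, Gm43055, is annotated on the same strand. The other covered 75 bases at the end of the coding sequence in exon 17 (chr5:86835777-86835851, score 5.28, rank 4745), a place that the deposited annotation assigns to the 3′ UTR. Neither holds a GGAC, out of 13 in the transcript, but both hold a DRACH. Ythdc2 (chr18:44827746-44889724, plus strand) had 0 peaks in every list, with 13 GGAC in 7215 bases, 1.80 per 1000 bases and the lowest density of the 10 members.

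By part of the transcript, 26 of the 32 member peaks had their midpoint in the coding sequence, 5 in a 3′ UTR and 1 in a 5′ UTR. Every Ythdf peak was among the coding ones, and a place listed repeatedly was counted once per list. The coding count therefore largely restates that the Ythdf genes were the ones marked. The other coding peaks were those of Fto, Ythdc1 and the coding part of Alkbh5 exon 1. By list the coding sequence held 4 of 5, 12 of 14, 4 of 6 and 6 of 7 in DMSO Pre, DMSO MCE, DMSO Diff and rhein, against 55.5%, 54.4%, 55.2% and 52.8% of all peaks on coding transcripts. For 3′ UTRs the share of all such peaks was 38.3% to 39.7%, and for 5′ UTRs 5.5% to 7.55%. A midpoint within 200 bases of the stop codon was seen for 0 of 5 peaks of DMSO Pre, 1 of 14 of DMSO MCE (Ythdc1, exon 17), 0 of 6 of DMSO Diff and 1 of 7 of rhein (Ythdf1). Among all peaks on coding transcripts this share was 22.0%, 24.96%, 23.7% and 22.9%. The late Ythdf peaks fell just outside this window, with 8 midpoints between -300 and -238 relative to the stop codon. GGAC lay in 4 of 5, 9 of 14, 6 of 6 and 4 of 7 member peaks, against 53.2%, 52.9%, 48.2% and 52.2% of all placed peaks, and DRACH in 28 of the 32 against 86.1% to 88.1%.

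Overlapping peaks of the 4 lists were joined into 17 places in the member genes. Of these, 11 were in 1 list only, 1 in 2 lists, 1 in 3 and 4 in all 4 lists, or 23.5%. Among all 8701 places of the series, 67.7% were in 1 list and 6.47% in all 4. The 4 places in all lists were the early and late peaks of Ythdf1, the early peaks of Ythdf3 and the 3′ UTR peaks of Alkbh5. Only the Ythdf1 places had bases common to all 4 lists. Those of Ythdf3 and Alkbh5 were joined through peaks of other lists, by the rule used for all places of the series. The 11 single-list places comprised 8 of DMSO MCE, 1 of DMSO Diff, 2 of rhein and 0 of DMSO Pre. Of the 5887 single-list places of the series, 46.1% were of DMSO MCE, the longest list, with 18.3% of DMSO Diff, 16.9% of rhein and 18.7% of DMSO Pre.

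Across the DMSO stages, 5 of the 5 DMSO Pre peaks shared a base with a DMSO MCE peak, and 5 of the 14 DMSO MCE peaks with one of DMSO Pre. Over all peaks of these lists the shares were 44.8% and 24.8%. Likewise 5 of 5 DMSO Pre peaks were met in DMSO Diff, and 5 of 6 DMSO Diff peaks in DMSO Pre, beside 38.2% and 36.1% of all peaks. Between DMSO MCE and DMSO Diff, 4 of 14 and 4 of 6 member peaks were shared, beside 26.0% and 45.8% of all peaks. Every member place of the preadipocytes was therefore listed again at both later stages, and what DMSO MCE had beyond them was 8 places of its own and the Alkbh5 exon 1 peak that rhein also listed. Between DMSO MCE and rhein, 4 of 14 and 4 of 7 member peaks were shared, beside 32.0% and 53.3% of all peaks. Between DMSO Diff and rhein, 3 of 6 and 3 of 7 were shared, beside 40.0% and 37.6% of all peaks. Peaks in DMSO Pre and rhein met in 4 of 5 and 4 of 7 cases, beside 36.1% and 33.4%.

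The rest of the pathway was described with 34 further genes, covering other parts of the methyltransferase complex, other methyltransferases and readers, partners of the YTH proteins and the supply of the methyl donor. A peak was held by 10 of these for DMSO Pre, 17 for DMSO MCE, 9 for DMSO Diff and 12 for rhein, against the shares of 6.89%, 12.5%, 6.69% and 7.45% of all protein-coding genes. In all, 22 of the 34 had a peak in at least 1 distinct list and 12 in none, against 16.6% of all protein-coding genes in at least 1. In every list it was 5, against 2.56%. These backgrounds include genes that may not be transcribed in these cells. The 5 genes were Zc3h13, a part of the writer complex, Elavl1 and Prrc2a, both described as m6A readers, Eif3a, a subunit of a translation initiation factor, and G3bp1, a stress granule protein.

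Zc3h13 had best scores of 7.38, 10.3, 7.81 and 8.32 in DMSO Pre, DMSO MCE, DMSO Diff and rhein, all in the coding sequence. This subunit of the writer complex thus held a listed peak throughout, whereas Mettl3, Mettl14 and Wtap had none listed. Elavl1 was marked in the 3′ UTR in every list, with 29.7, 10.1, 10.3 and 8.72. The DMSO Pre peak of Elavl1 (chr8:4289157-4289356, rank 93) is listed under the symbol of Timm44. Eif3a carried the highest peak of the wider pathway, in the coding sequence in DMSO MCE (chr19:60766394-60766768, score 43.4, rank 62), and scored 21.6, 15.3 and 15.2 in DMSO Pre, DMSO Diff and rhein. G3bp1 stayed in its 3′ UTR, with 4.92, 6.85, 5.71 and 8.04. Prrc2a scored 8.79, 9.56, 6.10 and 11.1, in the coding sequence and 3′ UTR except in DMSO MCE, where its single peak was in the 5′ UTR.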

How the data were processed

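MeRIP-seq peaks of 10 libraries in 5 conditions were taken as deposited. Per the study's methods and the submitters' processing notes, the authors had trimmed the reads (Trim Galore 0.6.5), aligned them to mm10 (HISAT2 2.1.0), removed duplicates (Picard 2.23.5) and reads of mapping quality below 30 (SAMtools 1.9), run exomePeak2 with its defaults to find peaks, whose exonic lengths come in steps of 25 bases, and annotated them with ChIPseeker 1.26. Which IP and input entered each call is not given in the sources used here. The deposited column headed as a log2 fold change was used as a score, because its lowest values equal minus log2 of 0.0500 to 0.0549 and it reaches 735. This reading is an inference from the values. Depth per sample is not held in the lists.

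Peaks were placed on GENCODE M21 transcripts of GRCm38, on the longest coding transcript, with sequence from RefSeq's GRCm38. Sharing required 1 exonic base on the same strand. Coding sequences were aligned as codons with MAFFT 7.526, and copies were sought with BLAST 2.17.0. Motifs GGAC and DRACH were searched on the transcript strand only. Python 3.11.15, NumPy 2.4.6, pandas 2.3.3, pysam 0.24.0 and Matplotlib 3.10.9 were used. On simulated data, 2000 peaks drawn from real transcripts were all (100%) placed in their own gene, 96.55% with the true exonic length (the remainder fell on a longer isoform), and 600 of 600 planted shared peaks were found.

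All 10 members are named. From the wider list, genes with a peak in every distinct list and those of its 3 highest peaks are named. Members and lists were chosen with earlier results of these data known. No test was made, since each condition had 1 IP and 1 input. Alternatives were other gene assignments, a stricter score, equal list lengths, other transcripts and windows, and DRACH. Not every sequence under a member peak is reported here.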

Additional observations from a re-analysis of the deposited data

Results flagged for a closer look

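The difference between rhein and DMSO went in opposite directions at the MCE and differentiation stages for 2 counts. Exonic peaks in the member genes numbered 7 fewer under rhein than in DMSO MCE (a difference of -7) and 1 more than in DMSO Diff (a difference of 1). Of the wider pathway, the genes with a peak differed by -5 and 3 in the same comparisons. This was not tested, since each condition had 1 IP and 1 input. Both comparisons use the same rhein values, because the 2 rhein lists are nearly identical, so the opposite signs restate that the rhein counts lay between those of DMSO Diff and DMSO MCE. With every list cut to 2824 peaks, member peaks numbered 7 under rhein, 8 in DMSO MCE and 6 in DMSO Diff, and the wider genes 12, 12 and 9.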

How the results depend on the processing

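Of 96 values recomputed under an alternative, 83 stayed within 1.5 times the value reported and 13 did not. A score above 33.2 was read as an adjusted p-value below 1e-10. With only such peaks, the members held 0 genes and 0 peaks in each of the 4 distinct lists. The wider pathway held 0 genes in DMSO Pre, DMSO Diff and rhein and 1 in DMSO MCE. This limit left 68 to 151 peaks in a list. With lists cut to the length of the shortest, the member peaks of DMSO MCE fell from 14 to 8. The other settings (any exonic base under the span, the deposited symbol or part, the transcript with the longest CDS, 100 bases around the stop codon or the midpoint, 50% overlap, DRACH) moved no count by over 1.5 times. No paired analysis was possible because the labels give 1 IP and 1 input per condition and no replicate numbers. Leaving out a replicate was not possible for the same reason. How often a repeat of any condition would list the same peaks cannot be known from these lists.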
